A study of Mus musculus with 48 samples.

Results

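The hippocampus of male mice of the inbred strain C57BL/6 was compared between animals given esomeprazole and animals given vehicle, both kept in a control environment without stress. The comparison held 12 of the 48 RNA-seq libraries of the study, 6 from mice given esomeprazole and 6 from mice given vehicle, and libraries were assigned to the groups by their labels for tissue, stress and drug. All mice of both groups were on postnatal days 63 to 91 and went through 3 days of control sessions. Injections into the abdominal cavity came 60 minutes after each session, and the brain was sampled once, 12 hours after the final injection. The series description gives the dose as 2 mg/kg and the treatment protocol as 2 g/kg. The other libraries came from frontal cortex or from mice in a stress environment, and 24 of them served below as a setting for the hippocampal values.

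Esomeprazole is a proton pump inhibitor. In the acid compartment of the gastric parietal cell the drug is converted to a reactive form that binds cysteines of the gastric H+/K+-ATPase, whose catalytic subunit is encoded by Atp4a, and acid secretion stops. Outside the stomach, proton pump inhibitors have been reported to act on vacuolar H+-ATPases, which acidify lysosomes and synaptic vesicles, on dimethylarginine dimethylaminohydrolase (DDAH), which breaks down an endogenous inhibitor of nitric oxide synthases, and on the aryl hydrocarbon receptor, a ligand-activated transcription factor whose targets include Cyp1b1. In hippocampal neurons, activity and stimuli that raise cAMP or calcium induce immediate early genes such as Fos within minutes. Their promoters often carry cAMP response elements, bound by CREB.

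No gene passed the test in this comparison. Of 14898 genes tested with limma, 0 were called at a Benjamini-Hochberg adjusted p under 0.05 (0% of the genes tested, in either direction), and 26 genes (0.175%) had an unadjusted p under 0.05, 11 of them higher with esomeprazole (0.0738%) and 15 lower (0.101%). The smallest adjusted p was 1.00. edgeR called 0 genes too, with 26 at an unadjusted p under 0.05, and DESeq2 called 0, with 47. Where nothing differs, about 1 in 20 genes have an unadjusted p under 0.05, and these counts were far below that. They show neither an effect nor its absence. Among genes with an average log2 CPM (reads scaled for library size) of at least 1, the activity-regulated transcription factor gene Fos had the smallest p, with a log2 fold change of -0.55 ± 0.21 (SE, n = 6 each). None of the genes in the groups tied to the known and proposed targets of the drug passed the test.

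Of the 12 libraries, 3 stood apart from the rest. A read without a feature lies outside annotated exons, and its share was 6.12% in esomeprazole library 4, against 8.78% and 5.36% in vehicle libraries 1 and 3, while the other 9 libraries had 16.9 to 19.9%. These 3 libraries also held the most genes without a read, 186 in esomeprazole library 4, against 125 and 351 in vehicle libraries 1 and 3, while the others held 41 to 56. The first principal component, 83.0% of the variance, put these 3 libraries on 1 side and the other 9 on the other. All results were therefore also computed over the 9 libraries with a no-feature share of at least 12%, 5 of esomeprazole and 4 of vehicle, a choice made after seeing the data. Gene reads numbered 27.7 to 39.1 M in esomeprazole libraries and 25.3 to 34.5 M in vehicle libraries, a mean difference of 2.88 M (two-sided exact permutation test over all regroupings, p = 0.229, adjusted over 5 library measures p = 0.593). The no-feature share averaged 16.3% ± 5.18 in esomeprazole libraries and 14.4% ± 5.84 in vehicle libraries (SD, n = 6 each, exact permutation p = 0.593).

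**Figure D1:**
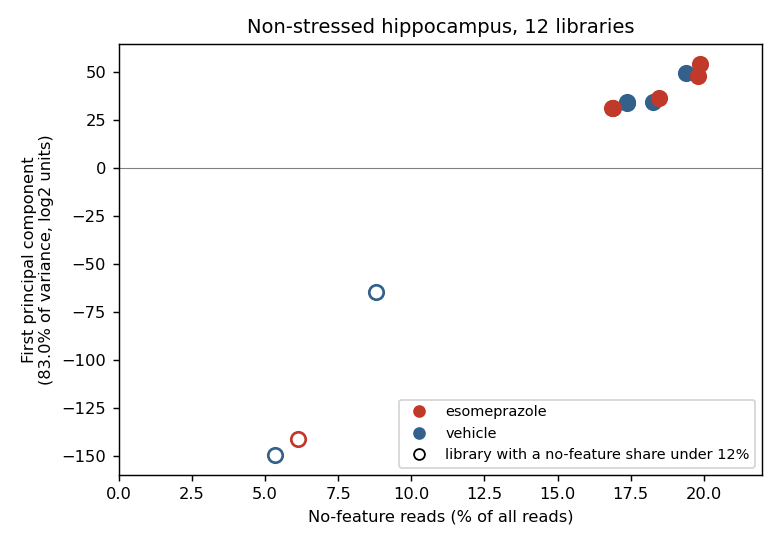
Each point is a hippocampal library of a non-stressed mouse, with the share of reads outside annotated features in percent on the x axis and the first principal component of log2 normalised reads on the y axis. Esomeprazole library 4 and vehicle libraries 1 and 3 (open points) lie apart from the other 9, in which both groups are intermingled.

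In the 9 libraries limma called 0 of 14959 genes, and 319 genes (2.13%) had an unadjusted p under 0.05, 160 higher (1.07%) and 159 lower (1.06%). That share too was below 1 in 20. The median standard error of a log2 fold change was 0.292 over 12 libraries and 0.0875 over 9. Over 12 libraries the 95% interval lay within 2-fold in both directions for 10425 genes (70.0%), and within 1.5-fold for 4866 (32.7%). Over 9 libraries these intervals lay within 2-fold for 14333 genes (95.8%) and within 1.5-fold for 12680 (84.8%). For those genes a difference larger than the bound lay outside the interval of each gene taken alone.

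**Figure D2:**
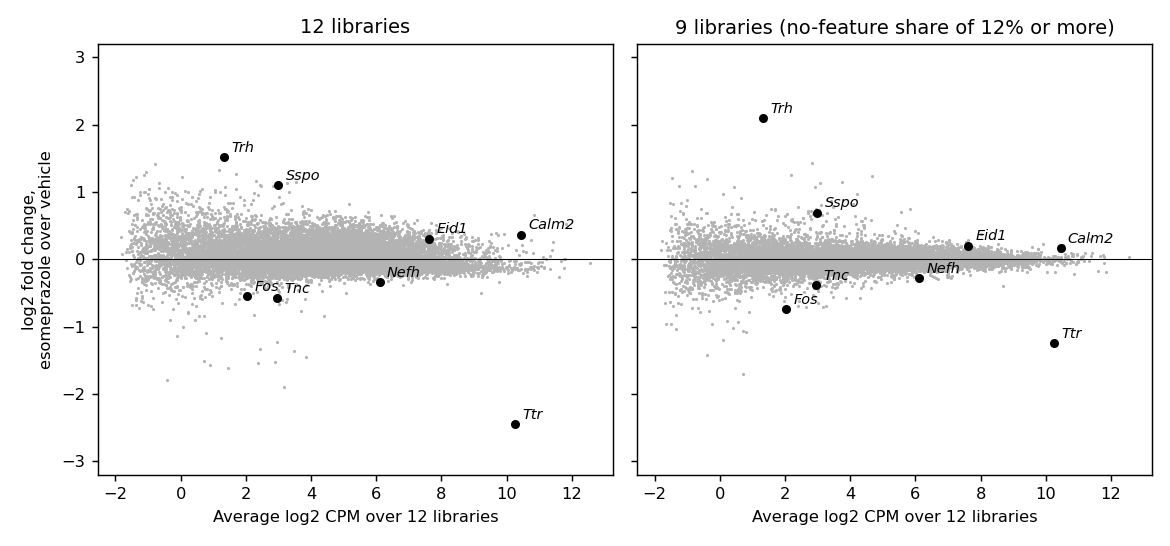
Each grey point is a gene, with its average log2 CPM over the 12 libraries on the x axis and its log2 fold change, esomeprazole over vehicle, on the y axis, from 12 libraries on the left and 9 on the right. The cloud is narrower with 9 libraries, and Fos (-0.55 over 12, -0.74 over 9) and Trh (1.52 and 2.10) lie at its edge in both.

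The promoters of Fos, Nr4a1 and Nr4a2, the immediate early genes with an unadjusted p under 0.05 in the 9 libraries, are shown because their values below were on the same side. Each runs from 250 bases before to 50 bases after the RefSeq start on GRCm38.p6, and that of Nr4a1 is a start inside the gene's span in the GENCODE annotation. Capitals mark the cAMP response element half-site TGACG or its reverse complement CGTCA.
Fos, chr12:85473640-85473939, plus strand: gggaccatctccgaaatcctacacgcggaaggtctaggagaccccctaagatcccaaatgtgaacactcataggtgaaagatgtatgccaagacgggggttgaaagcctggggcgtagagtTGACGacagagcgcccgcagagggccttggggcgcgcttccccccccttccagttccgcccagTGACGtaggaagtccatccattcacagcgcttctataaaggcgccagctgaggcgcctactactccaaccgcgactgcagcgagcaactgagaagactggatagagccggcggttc
Nr4a1, chr15:101266596-101266895, plus strand: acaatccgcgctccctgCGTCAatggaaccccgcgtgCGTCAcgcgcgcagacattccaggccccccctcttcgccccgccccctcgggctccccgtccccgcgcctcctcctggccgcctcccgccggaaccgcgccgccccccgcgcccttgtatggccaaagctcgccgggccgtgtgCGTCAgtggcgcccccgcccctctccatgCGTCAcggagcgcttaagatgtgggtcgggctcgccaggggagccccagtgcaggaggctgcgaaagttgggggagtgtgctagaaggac
Nr4a2, chr2:57123954-57124253, minus strand: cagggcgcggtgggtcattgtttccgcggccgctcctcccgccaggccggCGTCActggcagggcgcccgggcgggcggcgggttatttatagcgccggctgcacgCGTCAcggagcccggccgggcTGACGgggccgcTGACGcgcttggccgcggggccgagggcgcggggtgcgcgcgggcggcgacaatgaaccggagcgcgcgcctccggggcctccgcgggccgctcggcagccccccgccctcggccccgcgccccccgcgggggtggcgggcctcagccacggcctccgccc
The half-site occurs 2 times in the Fos window, 4 times in that of Nr4a1 and 4 times in that of Nr4a2. It was found on either strand in 16 of the 22 immediate early genes with a promoter in the RefSeq table (72.7%), against 3815 of 11212 tested genes with one (34.0%) and 6228 of all 27025 genes of the table (23.0%). The full palindrome TGACGTCA, which contains the half-site on both strands, was in 2 of these 22 genes (9.09%), against 393 of the 11212 (3.51%). A match describes the letters of the window and does not show binding.

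Fos encodes a subunit of the AP-1 transcription factor, and its transcript is a common marker of recent neuronal activity. In esomeprazole libraries Fos had 89.2 normalised reads at the lowest, 101 at the median and 165 at the highest, against 106, 163 and 203 in vehicle libraries. The highest esomeprazole value was that of library 4 and the lowest vehicle value that of library 3, both among the 3 libraries that stood apart, and the groups overlapped through esomeprazole library 4. The log2 fold change was -0.55 ± 0.21 over 12 libraries (limma unadjusted p = 0.0222, adjusted p = 1.00). Over the 9 libraries it was -0.74 ± 0.13 (95% interval -1.03 to -0.45, limma unadjusted p = 0.000174, adjusted p = 0.994), and the groups did not overlap. In these 9 libraries 52 genes lay wholly lower with esomeprazole (0.348%) and 54 wholly higher (0.361%). Full separation of 5 from 4 libraries is also met by chance, at a rate not computed here. DESeq2 over the 9 libraries called 1 gene, and it was Fos, with a log2 fold change of -0.76 and an adjusted p of 0.0105, whereas edgeR gave it an adjusted p of 0.990. Its adjusted p ranged from 0.0105 to 1.00 over 26 alternative settings, and its fold change was negative in all of them.

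Nr4a1 and Nr4a2 encode orphan nuclear receptors induced by neuronal activity. Nr4a1 had 1261, 1528 and 2975 normalised reads at the lowest, median and highest in esomeprazole libraries, against 1551, 1834 and 2009 in vehicle libraries. The highest value was again that of esomeprazole library 4, and the groups overlapped. Its log2 fold change was -0.15 ± 0.19 over 12 libraries and -0.27 ± 0.09 over 9 (limma unadjusted p = 0.0114, adjusted p = 0.994). Nr4a2 had 529, 1202 and 1754 normalised reads in esomeprazole libraries, against 527, 1513 and 1784 in vehicle libraries. The fold change on the log2 scale was -0.18 ± 0.34 over 12 libraries and -0.33 ± 0.15 over 9 (limma unadjusted p = 0.0462, adjusted p = 0.994).

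Of the 27 listed immediate early genes, all tested, 20 had a fold change below 0 and 7 above 0 over the 12 libraries, with a median log2 fold change of -0.14 against 0.014 for all genes, of which 7861 were above 0 and 7037 below. Over the 9 libraries 25 were below 0 and 2, Egr3 and Homer1, above it, with a median of -0.15 against 0.00095 for all genes. None of the 27 passed the test in limma. Fos had an unadjusted p under 0.05 over 12 libraries (1 of 27, against 0.175% of all genes), and Fos, Nr4a1 and Nr4a2 over 9 (3 of 27, against 2.13%). Among the others, the transcription factor genes Egr2 and Npas4 were at log2 fold changes of -0.51 ± 0.26 and -0.36 ± 0.17 over the 9 libraries, and Arc, which encodes a regulator of glutamate receptor trafficking, was at -0.29 ± 0.15. Immediate early genes are co-regulated, so their shared sign is not the count of independent observations. The summed level of the list was 26800 to 48311 normalised reads in esomeprazole libraries, the highest in library 4, against 29283 to 36909 in vehicle libraries.

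**Figure D3:**
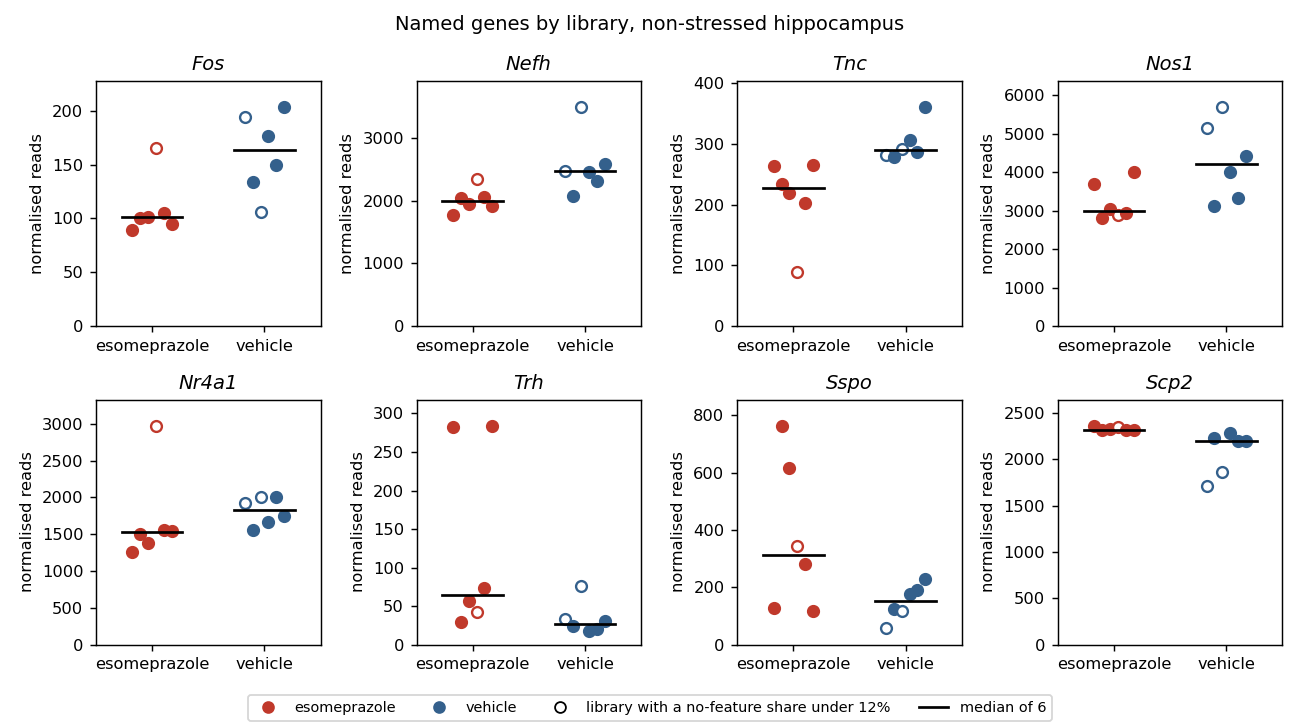
Normalised reads of 8 genes by library, with esomeprazole on the left and vehicle on the right of each panel, the bar at the median of 6 and open points for the 3 libraries with a low no-feature share. Among the filled points every esomeprazole value of Fos, at most 105, is below every vehicle value, at least 134, while Trh is high in 2 esomeprazole libraries.

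The direct target of the drug in the stomach was covered by few reads here. Atp4a had 17.8, 28.5 and 69.6 normalised reads at the lowest, median and highest in esomeprazole libraries, against 19.8, 34.4 and 42.1 in vehicle libraries. The groups overlapped, and the log2 fold change was -0.06 ± 0.33 over 12 libraries and -0.16 ± 0.27 over 9. Of the gastric and sodium pump ATPase list, 12 of 15 members were tested, 1 above 0 and 11 below over 12 libraries and 4 above and 8 below over 9, with a median of -0.07 in both. The vacuolar ATPase list had 7 of 20 tested subunits above 0 and 13 below, with a median of -0.04 over 12 libraries, and 10 above and 10 below over 9. Over 9 libraries the subunit genes Atp6v1g1, at 0.12 ± 0.05, and Tcirg1, at -0.24 ± 0.10, had unadjusted p under 0.05 in opposite directions, 2 of 20 against 2.13% of all genes. All 33 lysosomal genes were tested, 4 above 0 and 29 below over 12 libraries with a median of -0.09, and 14 above and 19 below over 9 with a median of -0.01.

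The nitric oxide genes held 1 member with an unadjusted p under 0.05 over the 12 libraries, and none over 9. Nos1, the neuronal nitric oxide synthase, had 2794, 2992 and 4009 normalised reads in esomeprazole libraries, against 3120, 4213 and 5683 in vehicle libraries. The highest vehicle values were those of libraries 1 and 3, which stood apart, and the groups overlapped. Its log2 fold change was -0.39 ± 0.17 over 12 libraries (limma unadjusted p = 0.0437, adjusted p = 1.00) and -0.18 ± 0.13 over 9 (unadjusted p = 0.211). Ddah1, which degrades the nitric oxide synthase inhibitor asymmetric dimethylarginine, had 3214, 3403 and 3449 normalised reads in esomeprazole libraries, against 3221, 3556 and 4805 in vehicle libraries. The log2 fold change was -0.15 ± 0.12 over 12 libraries and -0.03 ± 0.05 over 9, with a 95% interval of -0.13 to 0.08. Of 15 tested genes of the DDAH and nitric oxide list, 3 were above 0 and 12 below with a median of -0.12 over 12 libraries, and 7 above and 8 below with a median of -0.0058 over 9. Without esomeprazole library 4 alone that median was -0.29, and without vehicle library 3 alone -0.02.

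The aryl hydrocarbon receptor and oxidative stress genes had no member with an unadjusted p under 0.05 in either fit. Ahr, the receptor itself, had 64.8, 314 and 380 normalised reads in esomeprazole libraries, against 84.2, 302 and 351 in vehicle libraries, and its log2 fold change over 9 libraries was 0.02 ± 0.09. The lowest value was that of esomeprazole library 4. Cyp1b1, a cytochrome P450 induced by the receptor, had 107, 171 and 203 normalised reads in esomeprazole libraries, against 55.4, 139 and 265 in vehicle libraries. Its log2 fold change was 0.30 ± 0.38 over 12 libraries and -0.12 ± 0.22 over 9. Of 12 tested genes of the receptor's response, 6 were above 0 and 6 below over 12 libraries, with a median of -0.06, and 4 above and 8 below over 9, with a median of -0.05. Hmox1, heme oxygenase, an enzyme of the Nrf2 antioxidant response, had 148, 192 and 590 normalised reads in esomeprazole libraries, against 153, 187 and 483 in vehicle libraries, and was at 0.05 ± 0.11 over 9. Of 23 Nrf2 targets, 12 were above 0 and 11 below over 12 libraries, and 20 above and 3 below over 9, with a median of 0.05. Of 15 magnesium transport genes, listed because long use of these drugs can lower blood magnesium, 8 were above 0 and 7 below with a median of 0.0027 over 12 libraries, and 9 above and 6 below with a median of 0.02 over 9.

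Genes of the glucocorticoid list, many of which rise when stress hormones act in the brain, were mostly above 0 without any passing the test. Of 28 tested, 25 were above 0 and 3 below over 12 libraries, with a median of 0.18. Of all genes tested, 52.8% were above 0, with a median of 0.014. Over 9 libraries 24 were above and 4 below, with a median of 0.10 against 0.00095 for all genes. None had an unadjusted p under 0.05 in either fit. The listed genes are co-regulated, so their shared sign is not the count of independent observations, and the list was chosen with earlier results of these data known. Fkbp5, a co-chaperone that restrains the glucocorticoid receptor, had 3034, 3113 and 3829 normalised reads in esomeprazole libraries, against 2604, 3265 and 3830 in vehicle libraries, a log2 fold change of 0.01 ± 0.12 over 12 libraries and 0.11 ± 0.09 over 9. Sgk1, a kinase induced by the hormone, had 2745, 4274 and 4689 in esomeprazole libraries, against 2403, 3443 and 4816 in vehicle libraries, and was at 0.18 ± 0.19 over 12 libraries and 0.22 ± 0.17 over 9. Plin4, a lipid droplet protein, had 355, 841 and 1578 in esomeprazole libraries, against 163, 730 and 1289 in vehicle libraries, and was at 0.47 ± 0.51 over 12 libraries and 0.38 ± 0.34 over 9. Nr3c1, the receptor, had 399, 2343 and 2901 in esomeprazole libraries, against 329, 2147 and 2756 in vehicle libraries, and was at 0.31 ± 0.59 over 12 libraries and 0.05 ± 0.10 over 9. The heat shock list had 6 of 19 members above 0 and 13 below, and 2 above and 17 below over 9 libraries, and the unfolded protein response list had 6 of 21 above and 15 below, and 4 above and 17 below over 9. None of their members had an unadjusted p under 0.05.

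**Figure D4:**
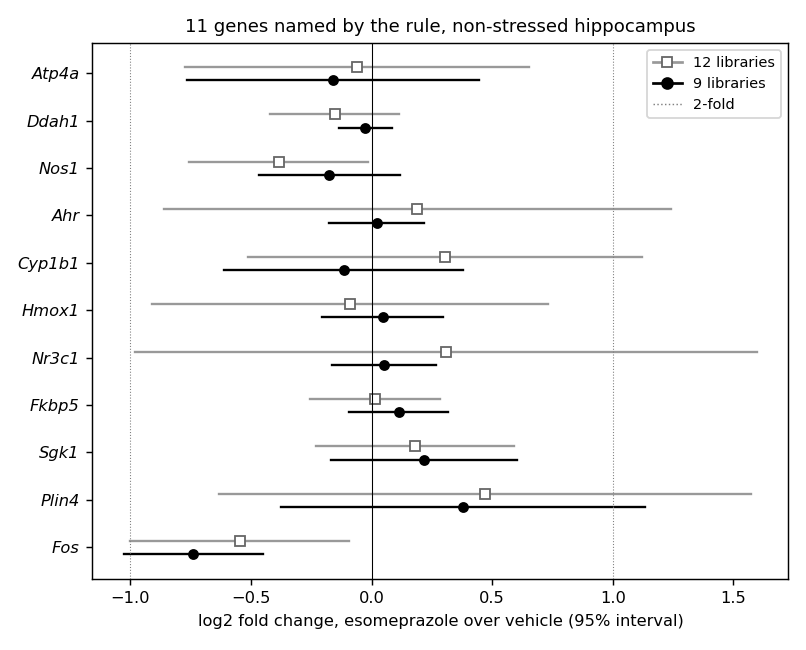
Log2 fold change of 11 genes, esomeprazole over vehicle, with 95% intervals from limma, open squares for 12 libraries and filled circles for 9, and dotted lines at 2-fold. Only Fos has an interval that leaves out 0 in both fits, and that of Nr3c1 spans -0.98 to 1.60 over 12 libraries and -0.16 to 0.27 over 9.

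**Figure D5:**
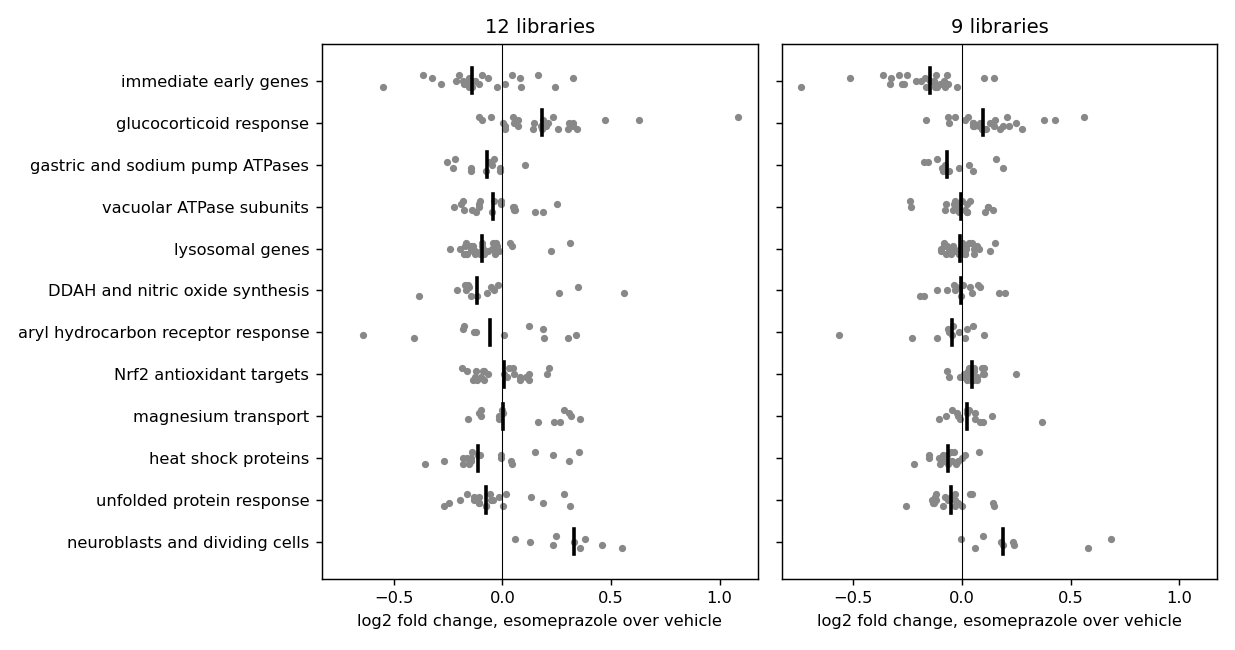
Log2 fold changes, esomeprazole over vehicle, of the tested members of 12 gene lists (grey points) and their median (black bar), over 12 libraries on the left and 9 on the right. The immediate early genes have a median of -0.14 and -0.15, while the lysosomal median of -0.09 over 12 libraries is -0.01 over 9.

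Nefh and Tnc were among the genes of smallest p on the lower side. Nefh encodes the heavy neurofilament subunit, an intermediate filament protein of large axons. It had 1778, 1996 and 2353 normalised reads in esomeprazole libraries, against 2079, 2474 and 3499 in vehicle libraries, and the groups overlapped. The log2 fold change was -0.34 ± 0.14 over 12 libraries and -0.28 ± 0.07 over 9 (limma unadjusted p = 0.00262, adjusted p = 0.994), where the groups did not overlap. The other neurofilament subunits, looked at after the value of Nefh was seen, were at -0.20 ± 0.16 (Nefm) and -0.03 ± 0.11 (Nefl) over 12 libraries and at -0.24 ± 0.06 and -0.10 ± 0.06 over 9. In frontal cortex without stress Nefh, Nefm and Nefl were at -0.38 ± 0.18, -0.89 ± 0.22 and -0.74 ± 0.20. In hippocampus after stress they were at -0.05 ± 0.17, -0.04 ± 0.17 and -0.12 ± 0.14. Tnc, the extracellular matrix glycoprotein tenascin-C, had 88.7, 227 and 266 normalised reads in esomeprazole libraries, against 279, 289 and 361 in vehicle libraries. The groups did not overlap, the log2 fold change was -0.58 ± 0.25 (limma unadjusted p = 0.0369, adjusted p = 1.00), and without the 3 libraries it was -0.38 ± 0.11.

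Tnc and Rfc3, a subunit of the clamp loader of DNA replication, were the 2 genes whose 12 values lay wholly lower with esomeprazole (0.0134% of the genes tested). Rfc3 had 145, 153 and 169 normalised reads in esomeprazole libraries, against 174, 176 and 256 in vehicle libraries, a log2 fold change of -0.32 ± 0.14 over 12 libraries and -0.18 ± 0.08 over 9. The epidermal growth factor receptor substrate gene family member Eps8l1 was at -0.63 ± 0.25 and the urokinase gene Plau at -0.43 ± 0.19. The sphingosine-1-phosphate phosphatase gene Sgpp2 was at -0.42 ± 0.18, the endothelial transcription factor gene Sox7 at -0.39 ± 0.18 and Disp2 at -0.24 ± 0.12. The groups of Eps8l1, Plau, Sgpp2, Sox7 and Disp2 overlapped. Over the 9 libraries Eps8l1 was at -0.69 ± 0.29 and Sgpp2 at -0.33 ± 0.12. There the limma unadjusted p of Plau, Sox7 and Disp2 was 0.110, 0.120 and 0.0564.

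On the higher side, 3 genes lay wholly higher with esomeprazole over all 12 libraries (0.0201%), Scp2, Ticam2 and Gm16576. That share too was far below the chance rate of full separation. Scp2, which encodes a sterol carrier protein of peroxisomes, had 2315, 2321 and 2364 normalised reads in esomeprazole libraries, against 1708, 2203 and 2282 in vehicle libraries. The step between the groups was small, with a log2 fold change of 0.17 ± 0.11 over 12 libraries and 0.06 ± 0.03 over 9. Ticam2, an adaptor of Toll-like receptor 4 signalling, had 31.6, 32.8 and 36.5 in esomeprazole libraries, against 15.6, 24.6 and 30.3 in vehicle libraries, a log2 fold change of 0.50 ± 0.19 over 12 libraries (limma unadjusted p = 0.0236, adjusted p = 1.00) and 0.45 ± 0.15 over 9. Gm16576 had 52.6 to 58.8 in esomeprazole libraries, against 46.2 to 50.6 in vehicle libraries. These 3 genes were named after their values were seen.

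Among the genes of at least 1 average log2 CPM, Trh had the smallest p on the higher side. Trh encodes thyrotropin-releasing hormone, made above all in the hypothalamus and also in some other brain regions. It had 28.8, 64.7 and 284 normalised reads in esomeprazole libraries, against 18.0, 26.9 and 75.8 in vehicle libraries. Esomeprazole libraries 1 and 6 held 282 and 284, and the other 4 overlapped with vehicle. The log2 fold change was 1.52 ± 0.59 over 12 libraries (limma unadjusted p = 0.0244, adjusted p = 1.00) and 2.10 ± 0.63 over 9. In frontal cortex without stress Trh was at 2.74 ± 0.98, and in hippocampus after stress at 1.20 ± 1.10. The hypothalamic marker list, of which Trh is a member, had 2 of 5 tested genes above 0 and 3 below over 12 libraries, with a median of -0.05, and all 5 above 0 over 9, with a median of 0.19. Its summed level was 163 to 563 in esomeprazole libraries, against 150 to 746 in vehicle libraries. Its part in the value of Trh was not tested.

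Sspo encodes SCO-spondin, a secreted protein of the subcommissural organ. It had 116, 313 and 764 normalised reads in esomeprazole libraries, against 59.3, 151 and 230 in vehicle libraries, a log2 fold change of 1.1 ± 0.50 over 12 libraries and 0.69 ± 0.55 over 9. The groups overlapped, and esomeprazole libraries 2 and 3, with 764 and 615, were the highest. Calm2, a calmodulin gene, was at 0.37 ± 0.15 over 12 libraries and 0.17 ± 0.08 over 9. Eid1, an inhibitor of the acetyltransferase p300, had 6703, 7121 and 8017 normalised reads in esomeprazole libraries, against 4122, 6080 and 6794 in vehicle libraries, and was at 0.31 ± 0.13 over 12 libraries and 0.21 ± 0.06 over 9. The remaining genes of the rule were Sar1b (0.26 ± 0.12), Ism1 (0.30 ± 0.15), Kcnh4 (0.40 ± 0.20), Tceal1 (0.34 ± 0.18), Gm5607 (0.34 ± 0.17) and Ccdc59 (0.33 ± 0.17), none with an unadjusted p under 0.05 over 12 libraries. Over 9 libraries they were between 0.09 ± 0.05 (Ccdc59) and 0.27 ± 0.12 (Gm5607). Gm5607 had no position in the annotation used.

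The gene of smallest p of all, at any level, was Mir703, a locus annotated on chr5:98475556-98475664 (mm10, minus strand) inside an intron of Cfap299, which lies on the plus strand. The mature sequence is shown because the locus leads the ranking, with its seed (bases 2 to 8) in capitals.
mmu-miR-703: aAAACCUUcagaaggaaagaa
Mir703 had 9.59, 13.5 and 20.6 normalised reads in esomeprazole libraries, against 2.71, 5.25 and 11.2 in vehicle libraries. The groups overlapped between vehicle library 2 and esomeprazole library 4, and did not overlap over the 9 libraries. The log2 fold change was 1.18 ± 0.32 (limma unadjusted p = 0.00294, adjusted p = 1.00) and 1.20 ± 0.36 over 9. Libraries of poly(A) RNA do not measure the mature miRNA, so these few reads count transcripts that overlap the locus, and whether strand was used in counting is not given in the sources used here.

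Cell type markers of several tissues had enough reads to be tested, which alone does not show what tissue a library held. The 3 marker lists of hippocampal neurons were nearly all tested (13 of 13 dentate granule, 8 of 8 CA1 and 9 of 10 CA2 and CA3 genes), with summed levels of the dentate list of 20868 to 30313 normalised reads in esomeprazole libraries, against 20336 to 33564 in vehicle libraries. In bulk tissue fewer cells of a type and less RNA per cell cannot be told apart. Choroid plexus markers, which come from the lining of the ventricle beside the hippocampus, varied widely between libraries. Their summed level was 6270 to 269009 normalised reads in esomeprazole libraries, against 8846 to 196179 in vehicle libraries. Ttr, transthyretin, the leading transcript of that tissue, had 509, 1510 and 163453 in esomeprazole libraries, against 1570, 28757 and 149298 in vehicle libraries. All 13 choroid plexus genes were below 0 over 12 libraries with a median of -1.22, and 4 were above and 9 below over 9, with a median of -0.27. In edgeR and DESeq2 over the 9 libraries that median was above 0, at 0.94 in both. None had an unadjusted p under 0.05, and the groups of Ttr overlapped.

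Markers of other neighbouring tissue were also present. The summed level of 12 thalamic and habenular genes was 6113 to 8995 in esomeprazole libraries, against 5789 to 10662 in vehicle libraries, with 3 genes above 0 and 9 below over 12 libraries and a median of -0.16. Over 9 libraries 2 were above 0 and 10 below with a median of -0.25, and Slc17a6, a vesicular glutamate transporter gene, was at -0.58 ± 0.23 with an unadjusted p under 0.05. The summed level of 10 striatal genes was 5500 to 7694 in esomeprazole libraries, against 5428 to 8252 in vehicle libraries, with 5 genes above 0 and 5 below over 12 libraries (median 0.06), and 8 above and 2 below over 9 (median 0.19). The part of these neighbouring cells in the values of single genes was not tested. Of the 9 genes of neuroblasts and dividing cells, which mark adult neurogenesis in the dentate gyrus, 9 were above 0 over 12 libraries, with a median of 0.33, and 8 over 9 libraries, with a median of 0.19. Eomes, a transcription factor of intermediate progenitors, was at 0.55 ± 0.40 and Dcx, doublecortin, at 0.46 ± 0.82 over 12 libraries. None of the 9 had an unadjusted p under 0.05. Of all genes tested, 52.8% were above 0 over 12 libraries. As markers of the same cells the 9 vary together, so their shared sign is not the count of independent observations. Their summed level was 1049 to 2378 normalised reads in esomeprazole libraries, against 647 to 2151 in vehicle libraries. The lowest values were those of esomeprazole library 4 and vehicle library 3, both among the libraries that stood apart.

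The same drug contrast was available after stress in hippocampus and without stress in frontal cortex, and the difference between the contrasts was tested. Without stress minus after stress, over 24 hippocampal libraries, 0 of 15062 genes were called (0%) by limma, and 57 (0.378%) had an unadjusted p under 0.05, 13 with a higher (0.0863%) and 44 with a lower (0.292%) difference, while edgeR called 0 as well. Without the 5 libraries with a no-feature share under 12%, 0 genes were called and 346 had an unadjusted p under 0.05, more than the 57 over 24 libraries. The number of genes tested without those libraries is not reported here, so no share is given. Actn2, which encodes an actinin of dendritic spines, had the smallest p on the lower side among genes of at least 1 average log2 CPM, with a difference of -0.93 ± 0.31, and Slc15a2, a peptide transporter gene, on the higher side, with 0.79 ± 0.33 (limma adjusted p = 1.00 each). Srgn, Palmd, Krt10 and Parp3 completed the named genes, at 0.50 ± 0.23, 0.57 ± 0.24, -0.56 ± 0.20 and -0.45 ± 0.16. Over the 24 libraries the effects without and after stress were -0.14 ± 0.22 and 0.79 ± 0.22 for Actn2. They were 0.39 ± 0.24 and -0.40 ± 0.24 for Slc15a2, 0.23 ± 0.16 and -0.27 ± 0.16 for Srgn, and 0.04 ± 0.17 and -0.53 ± 0.17 for Palmd. For Krt10 they were -0.01 ± 0.14 and 0.55 ± 0.14, and for Parp3 -0.18 ± 0.11 and 0.27 ± 0.11. For Fos the effect after stress was -0.48 ± 0.38 and the difference between the arms -0.07 (limma adjusted p = 1.00). Without those 5 libraries the difference was -0.69 (limma unadjusted p = 0.123, adjusted p = 1.00).

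Hippocampus minus frontal cortex without stress, over 24 libraries, gave 0 calls among 14797 genes (0%) in limma, and 401 (2.71%) at an unadjusted p under 0.05, 150 higher (1.01%) and 251 lower (1.7%), while edgeR called 0 as well. Over the 18 libraries with a no-feature share of at least 12%, 0 genes were called. In that fit 2834 genes had an unadjusted p under 0.05, many more than the 401 over 24 libraries. The number of genes tested over the 18 libraries is not reported here, so no share is given. Eid1 led the higher side with a difference of 0.70 ± 0.21, from 0.30 ± 0.15 in hippocampus and -0.40 ± 0.15 in frontal cortex. Nrn1, a neuritin gene induced by activity, differed by 1.00 ± 0.31 and the metalloprotease gene Pappa2 by 2.18 ± 0.69. On the lower side stood Nos1 at -0.92 ± 0.30, Afap1l2 at -0.67 ± 0.21 and Rfc3 at -0.61 ± 0.20. Each of these 6 differences had a limma adjusted p of 1.00. In hippocampus and frontal cortex in turn, Nrn1 was at 0.15 ± 0.22 and -0.85 ± 0.22, and Pappa2 at 0.28 ± 0.49 and -1.90 ± 0.49. Nos1 was at -0.39 ± 0.21 and 0.52 ± 0.21, Afap1l2 at -0.16 ± 0.15 and 0.51 ± 0.15, and Rfc3 at -0.32 ± 0.14 and 0.28 ± 0.14. Fos was at -0.73 ± 0.24 in frontal cortex, and its difference between the tissues was 0.18 (limma adjusted p = 1.00), or -0.19 over the 18 libraries (adjusted p = 0.769). No source used here states whether the hippocampus and frontal cortex of the same number came from the same mouse.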

How the data were processed

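Poly(A) RNA went into stranded libraries and was sequenced as read pairs, per the labels' protocols. Per the submitters' processing notes, the tools were DESeq2, HTSeq and STAR and the build was mm10, with no version or role. The deposited signal of a gene is its read count divided by a factor that its library shares, since 100% of the deposited values are whole multiples of a library's step within 0.02. The authors' factors stood at a mean of 0.932 (esomeprazole) and 1.07 (vehicle) times joint factors, so whole reads were recovered and scaled jointly over the 12 libraries by TMM (edgeR 4.0.16). The files held 15304 hippocampal genes. A spreadsheet had changed 24 names into dates, and 1 name was repeated.

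Genes passing filterByExpr at a minimum count of 10 were tested in limma 3.58.1 (trend) after a log2 transform of normalised reads plus 1, and adjusted p under 0.05 was the threshold. Fold changes are on that scale, which understates the change of genes with few reads, and errors are standard errors from limma. edgeR's quasi-likelihood test and DESeq2 1.42.0 in R 4.3.3 were alternatives on the recovered reads. The others were median-of-ratios and the deposited scaling, no low-count filter, a pseudocount of 5, a fit over 24 hippocampal libraries, the replicate number as a block, the no-feature share or library size as a covariate, each library left out, and, chosen after seeing the data, the 9 libraries. The limma, edgeR and DESeq2 tests of esomeprazole against vehicle were checked on simulated data. The share of false calls there was above the nominal rate in all of them over 12 libraries and in DESeq2 alone over 9, most in DESeq2. In the simulation limma over 12 libraries missed most changes of 2-fold and all smaller ones. Genes were drawn independently, without a shift shared by the libraries of a low no-feature share, so these rates need not hold for the data. The tests of a difference and the permutation tests were not simulated. Depth is the number of gene reads, 25.3 to 39.1 M per library.

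Named genes were the 10 of smallest p in each direction of average log2 CPM 1 or more (no gene was called), list members with an unadjusted p under 0.05 (up to 4 a list), 11 fixed genes (another fixed gene is not reported here) and 3 in each direction of each difference test. The genes and lists were chosen with earlier results of these data known. There were 44 lists, 23 of pathways and 21 of cell types. Others, said to be chosen after their values were seen, were Mir703, the 5 genes whose groups did not overlap over 12 libraries, the leading genes of the 9-library fit (Cpne5 and Penk among them), the other NR4A receptor and neurofilament genes, and Ttr. Atp6v1g1, Tcirg1, Nfil3, Tlr4 and Slc17a6 were named for an unadjusted p under 0.05 in the 9-library fit alone. Egr2, Egr3, Homer1, Npas4, Arc, Eomes and Dcx met none of these rules and were named with their values known. Positions are from GENCODE vM21 and sequences from RefSeq on GRCm38.p6. Library measures were compared by exact permutation (Python 3.11.15, numpy 2.4.6, scipy 1.17.1, pandas 2.3.3), and figures were drawn with matplotlib 3.10.9.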

Additional observations from a re-analysis of the deposited data

Results flagged for a closer look

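In 90 groups of 6 libraries (the named genes and 5 library measures), a library was looked for whose gap to its nearest neighbour took more than 0.625 of the group's range, Dixon's 95% limit, which chance passes in about 1 in 20 groups. It was found 20 times (22.2%), 11 times in esomeprazole library 4 and 5 times in vehicle library 3.

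Esomeprazole library 4 was lowest in no-feature share (6.12%, the next 16.9%), in Tnc (88.7 normalised reads), Ahr (64.8) and Nr3c1 (399). It was highest in ambiguous reads (1.91%), in genes without a read (186) and in Fos (165), Hmox1 (590), Cpne5 (1657), Nr4a1 (2975) and Nefl (15779). Vehicle library 3 was lowest in Eid1 (4122) and Gm5607 (266) and highest in Sox7 (112), Cpne5 (1767) and genes without a read (351). Esomeprazole library 1 was highest in Sar1b (1541) and Fkbp5 (3829), vehicle library 6 in Tnc (361) and vehicle library 5 in Gm16576 (50.6). Values without the 3 libraries of a low no-feature share stand beside most results in the text, and the part of RNA quality in them was not tested.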

How the results depend on the processing

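The count of called genes was 0 in every setting run except DESeq2 over the 9 libraries, which called 1. The count with an unadjusted p under 0.05, 26 in the text, was 577 with the deposited scaling, 47 with DESeq2, 280 when the no-feature share was a covariate, and 319 (limma), 339 (edgeR), 358 (DESeq2) and 324 (median-of-ratios scaling) over the 9 libraries; it was 16 to 156 with 1 library left out, the highest without esomeprazole library 4. The deposited scaling moved the median log2 fold change by 0.20 and put 94.8% of genes above 0, against 52.8%. With the replicate number as a block, 0 genes were called and 13 had an unadjusted p under 0.05. Same-numbered libraries correlated at -0.81 to 0.75 and 2 of 6 numbers matched best with their own. The negative values were those of numbers 1 (-0.65), 3 (-0.34) and 4 (-0.81), each with 1 library of a low no-feature share. The other numbers were at 0.65 to 0.75. Whether the libraries of a low no-feature share set the sign was not tested. This check therefore cannot decide whether the numbers are pairs, and the numbers were not taken as pairs.

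Of 40 genes over 26 settings each, 26 kept their direction throughout. With the deposited scaling these log2 fold changes turned: Atp4a 0.14, Ddah1 0.051, Hmox1 0.11, Nr4a1 0.055, Nr4a2 0.027, Nefl 0.18 and Nefm 0.0038. With edgeR and DESeq2 Atp4a was at 0.054 and 0.060. With the covariate Atp4a was at 0.072, Ahr -0.12, Hmox1 0.14, Nr3c1 -0.072 and Nefl 0.0042. Over 9 libraries, in limma, edgeR, DESeq2 and limma with median-of-ratios scaling in turn, Cyp1b1 was at -0.12, -0.14, -0.14 and -0.11 and Hmox1 at 0.046, 0.051, 0.053 and 0.047, and Ttr was at 1.25 in edgeR and DESeq2. Fos in DESeq2 was at -0.76. With 1 library left out the ranges that crossed 0 were -0.082 to 0.57 (Ahr), -0.30 to 0.075 (Atp4a), -0.035 to 0.39 (Cpne5), -0.046 to 0.065 (Fkbp5), -0.37 to 0.12 (Hmox1), -0.12 to 0.74 (Nr3c1), -0.43 to 0.037 (Nr4a2) and -0.057 to 0.35 (Penk). The cause was not tested. List medians moved beyond their spread in 42 of 1092 settings, 10 of them for astrocytes (range 0.0014 to 0.28) and 8 for DDAH and nitric oxide synthesis (-0.29 to 0.09). The choroid plexus median ranged from -1.91 to 0.94.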

Other observations

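Other gene groups also held no gene past the test. Of 23 circadian clock genes, 13 were above 0 and 10 below, with a median log2 fold change of 0.02, and Nfil3, a clock output repressor, had an unadjusted p under 0.05 over the 9 libraries, on the lower side. Of 23 interferon response genes, 9 were above 0 and 14 below in both fits. Of 20 tested cytokine signalling genes, 13 were above 0, and Tlr4 had an unadjusted p under 0.05 over 9 libraries, on the higher side. Cholesterol synthesis genes were at a median of -0.08 over 12 libraries and 0.02 over 9, and 31 glutamate and GABA receptor genes at 0.13 and 0.01. Amyloid and tau genes, of interest because these drugs have been studied for dementia risk, were at -0.06 and -0.0038.

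Microglial markers were above 0 in 4 of 14 genes over 12 libraries and in 10 of 14 over 9. Astrocyte markers were at medians of 0.07 and 0.02, oligodendrocyte markers at 0.12 and -0.0082 and endothelial markers at -0.12 and -0.06. Penk, the enkephalin precursor, was at 0.11 ± 0.33 over 12 libraries and 0.39 ± 0.10 over 9 (limma unadjusted p = 0.00305, adjusted p = 0.994). Penk is also abundant in striatum, whose 10 tested markers had a median of 0.06 over 12 libraries and 0.19 over 9, and their part in its value was not tested. Cpne5, a calcium-dependent membrane-binding protein gene, was at 0.15 ± 0.30 and 0.28 ± 0.06, and its groups did not overlap over the 9 libraries. After stress, Penk was at 1.77 ± 0.70 and Cpne5 at 1.03 ± 0.49 in hippocampus (limma adjusted p of the difference 1.00 for both).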
